A study of Mus musculus with 2 samples.

Results

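The mouse mitochondrial genome encodes 37 transcripts, and all were followed here in small RNA from spleen cells: 2 rRNAs (mt-Rnr1 and mt-Rnr2), 22 tRNAs and 13 mRNAs. Members were chosen by symbol, and a tag, meaning a distinct read sequence of 18 to 44 nt, was counted when it was identical in sense to a GENCODE M21 transcript of one of these genes. Of 1858314 distinct tags in both libraries together, 1991 matched, 1290 of them present in Ia_high and 981 in Ia_low, with 280 in both. They carried 45197 of 16388303 reads in Ia_high and 58462 of 13739811 reads in Ia_low. Reads were found for all 37 genes in Ia_high and for 35 in Ia_low. The exceptions were mt-Nd3 (13 reads) and mt-Td (8 reads), which had none in Ia_low.

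Both libraries came from the spleen of C57BL/6J mice, from cells held back with CD11c microbeads and then sorted on staining for the class II protein Ia. Ia_high and Ia_low name the bright and the dim sort, both called dendritic cells in the labels, with no allele, agent or age given for either. Each group is 1 library, so no test between groups was possible, and every ratio below describes 2 libraries. Intervals are exact 95% intervals that cover counting error only, since PCR reads without molecular identifiers are not independent molecules. A tag most often had 4 reads in Ia_high and 9 in Ia_low, among tags read more than once, and the widened interval of a ratio treats such a block of reads as 1 observation.

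The sorts differed in more than their Ia staining. By mRNA fragments, all 5 measured monocyte markers were at least 2-fold higher in Ia_low (summed scaled fragments 436 and 1890 in Ia_high and Ia_low), among them Ace, which was 8.45-fold higher. Of 7 measured dendritic cell markers, 4 were at least 2-fold lower in Ia_low. Fragments totalled 343784 in Ia_high and 142394 in Ia_low, and scaled values are set to equal totals. H2-Aa (972 fragments against 189, scaled 687 and 323) and H2-Ab1 (922 against 185, scaled 652 and 316) encode Ia itself. The gate therefore set their direction. Zbtb46 (56 against 1, scaled 39.6 and 1.71) and Flt3 (163 against 6, scaled 115 and 10.2) do not encode Ia. By the same rule, 9.53% of 7123 genes outside the mitochondrial genome were higher and 17.7% lower. B cell markers had 27 and 4 fragments (scaled 19.1 and 6.83), and erythroid and platelet markers 2 and 0 each. T cell markers had 32 and 0 (scaled 22.6 and 0), all of them from Tcf7, while the other 3 were at 0 in both libraries. The part of cell type in the mitochondrial values was not tested, and in bulk samples fewer cells of a type and less RNA per cell cannot be told apart. The reads of Ia_low were also longer, with a median of 25 nt against 23 nt.

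Mitochondrial DNA is transcribed from both strands into long precursors in which most mRNAs and both rRNAs are flanked by tRNAs. RNase P cuts at the 5' end of each tRNA and ELAC2 at its 3' end, which frees the RNAs between them, and the sequence CCA is then added to the tRNA 3' ends by an enzyme, since it is not encoded. A gene's first base is therefore often also the place of a cut in the precursor.

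The tags below are given 5' to 3', as sequenced (T for U), with coordinates in GRCm38, to show where in each gene its leading fragment lies. They are the most abundant tag, by its mean share of reads over both libraries, of each rRNA, of the 6 most abundant tRNAs and of the 3 most abundant mRNAs. Capitals mark the anticodon bases that a tRNA tag holds. The mt-Ts1 tag stops before its anticodon.

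mt-Rnr2, chrM:1094-1117, plus strand: actaatcctagccctagccctaca

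mt-Rnr1, chrM:743-764, plus strand: aacgttaggtcaaggtgtagcc

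mt-Ts2, chrM:11613-11634, plus strand: aagaaagattgcaagaactGCT

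mt-Tm, chrM:3845-3875, plus strand: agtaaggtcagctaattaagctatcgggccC

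mt-Ts1, chrM:6912-6938, minus strand: gagaaagacatataggatatgagattg

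mt-Tg, chrM:9419-9440, plus strand: ctTCCaattagtagattctgaa

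mt-Th, chrM:11573-11601, plus strand: ctGTGaatctgacaacaggaaataaacct

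mt-Tc, chrM:5228-5257, minus strand: ggtcttaaggtgatattcatgtcgaattGC

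mt-Co1, chrM:6029-6050, plus strand: gttctgattctttgggcaccca

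mt-Co2, chrM:7395-7419, plus strand: taaaacctggtgaactacgactgct

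mt-Cytb, chrM:14548-14573, plus strand: gaggacaaatatcattctgaggtgcc

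The mt-Rnr2, mt-Ts2, mt-Tm, mt-Ts1 and mt-Tc tags begin at base 1 of their gene, and the others begin inside it. The mt-Co2 tag also matches a gene outside the mitochondrial genome, as did 234 of the 1991 tags, which held 1.78% of mitochondrial reads in Ia_high and 1.42% in Ia_low.

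Levels are given as RPM, the reads of a gene in every 1000000 reads of the library. Mitochondrial tags made up 2758 RPM in Ia_high and 4255 RPM in Ia_low, a ratio of 1.54 (widened interval 1.5 to 1.59). On the log2 scale this was 0.63, and it was 1.5 scaled to miRNA hairpin reads and 0.25 for distinct tags as a share of all distinct tags. The size of the ratio thus depended on the scale. Scaling to miRNA hairpin reads adds 0.87 to every log2 ratio, because these reads numbered 5873751 in Ia_high and 2695056 in Ia_low. Composition within the mitochondrial reads does not depend on that choice.

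Within that composition, tRNA tags held 31.1% of mitochondrial reads in Ia_high (interval 30.7% to 31.6%) and 45.2% in Ia_low (44.8% to 45.6%). The share of rRNA was 65.5% in Ia_high and 52.2% in Ia_low. The mRNAs held 3.40% and 2.68%, from 1536 and 1569 reads. In RPM, the tRNA ratio was 2.24 (widened interval 2.13 to 2.35), against 1.23 for rRNA and 1.22 for mRNA. The tRNA share and ratio rested in part on 1 gene. mt-Tm gave 2039 of the 14075 tRNA reads in Ia_high and 9988 of 26400 in Ia_low, and the values without it were not computed.

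**Figure D1:**
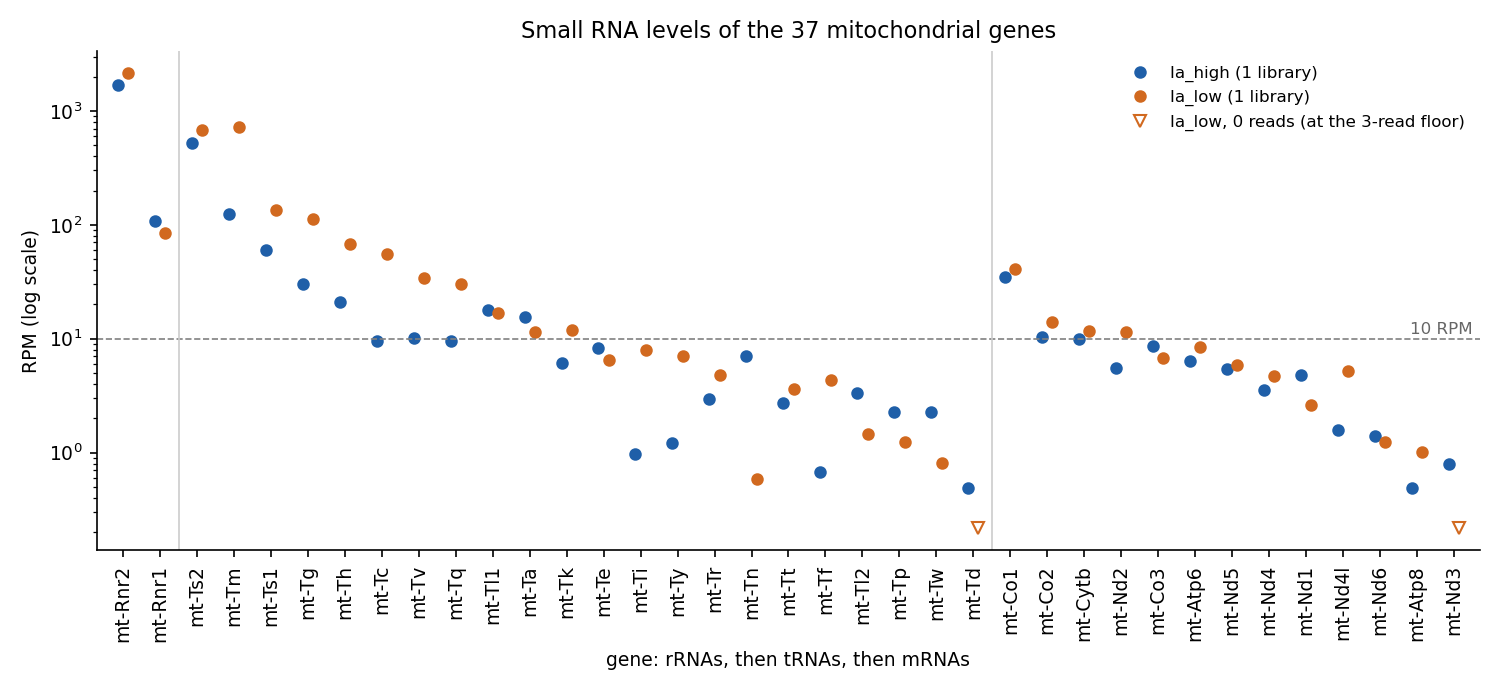
RPM (log axis) for each of the 37 genes, ordered by RNA type and then by mean, with 1 point per library; a triangle marks a gene with 0 reads, drawn at the 3-read floor. mt-Rnr2 is the highest gene in both libraries, and mt-Tm is at 124 in Ia_high and 727 in Ia_low.

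A gene was called measured at a mean of 10 RPM or more, and higher or lower at a 2-fold ratio. Of 15 measured genes, 7 were higher in Ia_low, 0 were lower and 8 were neither. Outside the mitochondrial genome, 12% of 3235 genes were higher and 12.5% lower by the same rule. All 7 higher genes were tRNAs, out of 10 measured tRNAs, while none of the 2 rRNAs and 3 measured mRNAs passed. The median log2 ratio was 1.67 over the measured mitochondrial tRNAs and 0.25 over the measured mRNAs, against -0.05 over all measured genes outside the mitochondrial genome. Of those 3235 genes, 2986 were protein-coding. Other short noncoding RNAs differed from that median, with 1.84 over 6 snRNAs, 0.86 over 58 snoRNAs and -1.29 over 97 miRNAs. A rise of this size was therefore not particular to mitochondrial tRNAs. Scaled to miRNA hairpin reads, 23 of 30 measured mitochondrial genes were higher and 1 lower, but there 42.1% of other genes were higher and 5.83% lower.

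**Figure D2:**
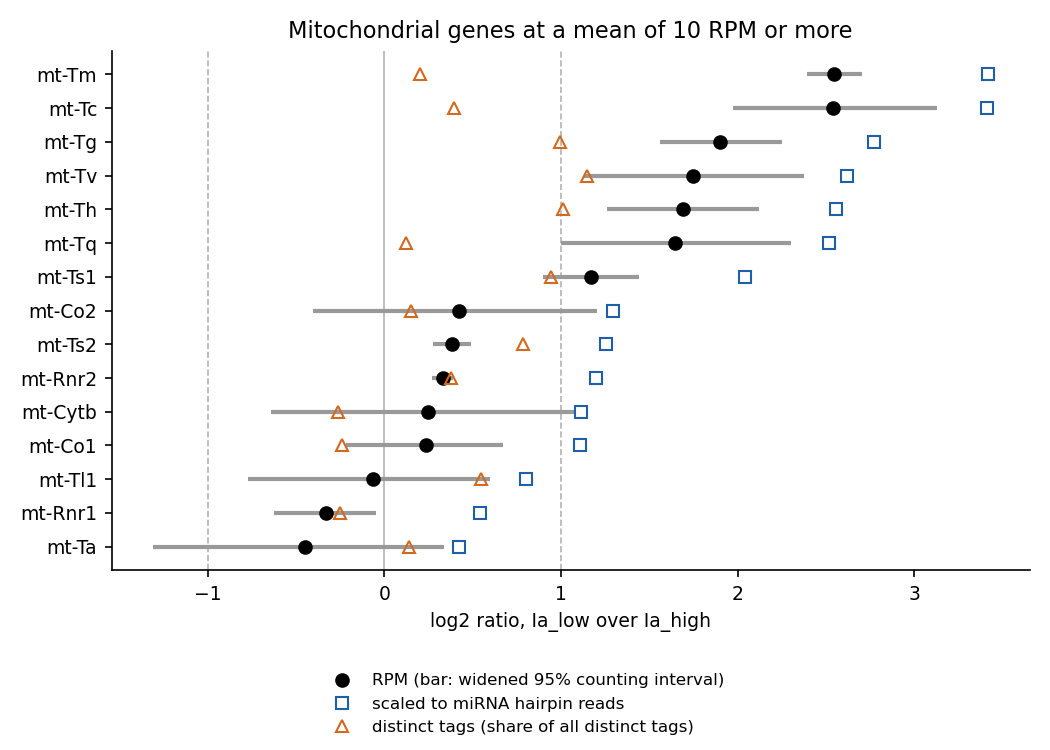
Log2 ratio of Ia_low over Ia_high for the 15 measured genes on 3 scales, with the widened 95% interval as a bar on the scale of all reads; dashed lines mark 2-fold. The 7 uppermost genes are tRNAs, and mt-Tm falls from 2.55 by reads to 0.20 by distinct tags.

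mt-Rnr2, the 16S rRNA of the large mitochondrial ribosomal subunit (chrM:1094-2675, plus strand), was the most abundant member. It had 27824 reads in Ia_high and 29318 in Ia_low, or 1698 and 2134 RPM, a ratio of 1.26 (widened interval 1.21 to 1.31). Without its most abundant tag the log2 ratio went from 0.33 to -0.06. Most of its reads, 89.5% and 87.7%, began at base 1. These 24899 and 25708 reads were 55.1% and 44% of all mitochondrial reads, from 12 and 16 tags. The start was sharp: tags starting 1 base earlier had 5 and 7 reads and tags starting 1 base later 9 and 6. Tags that ran across the boundary with mt-Tv, the tRNA just upstream, had 12 and 11 reads.

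The 3' ends of these base-1 tags differed between the libraries. Capitals mark what the longer of the 2 leading tags has beyond the shorter.

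mt-Rnr2, 20 nt: actaatcctagccctagccc

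mt-Rnr2, 24 nt: actaatcctagccctagcccTACA

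The 20-nt tag had 8100 reads in Ia_high and 358 in Ia_low, which was 32.5% and 1.39% of base-1 reads and 19.0-fold lower in RPM in Ia_low. The 24-nt tag went the other way, with 5567 and 11375 reads, or 22.4% and 44.2%. Median length moved from 22 to 24 nt. All reads of the library moved in the same direction: those of 20 nt or less were 11.7% in Ia_high and 3.60% in Ia_low. Among all library reads of 20 nt, the 20-nt mt-Rnr2 tag still took a smaller share in Ia_low, with a ratio of 0.156.

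**Figure D3:**
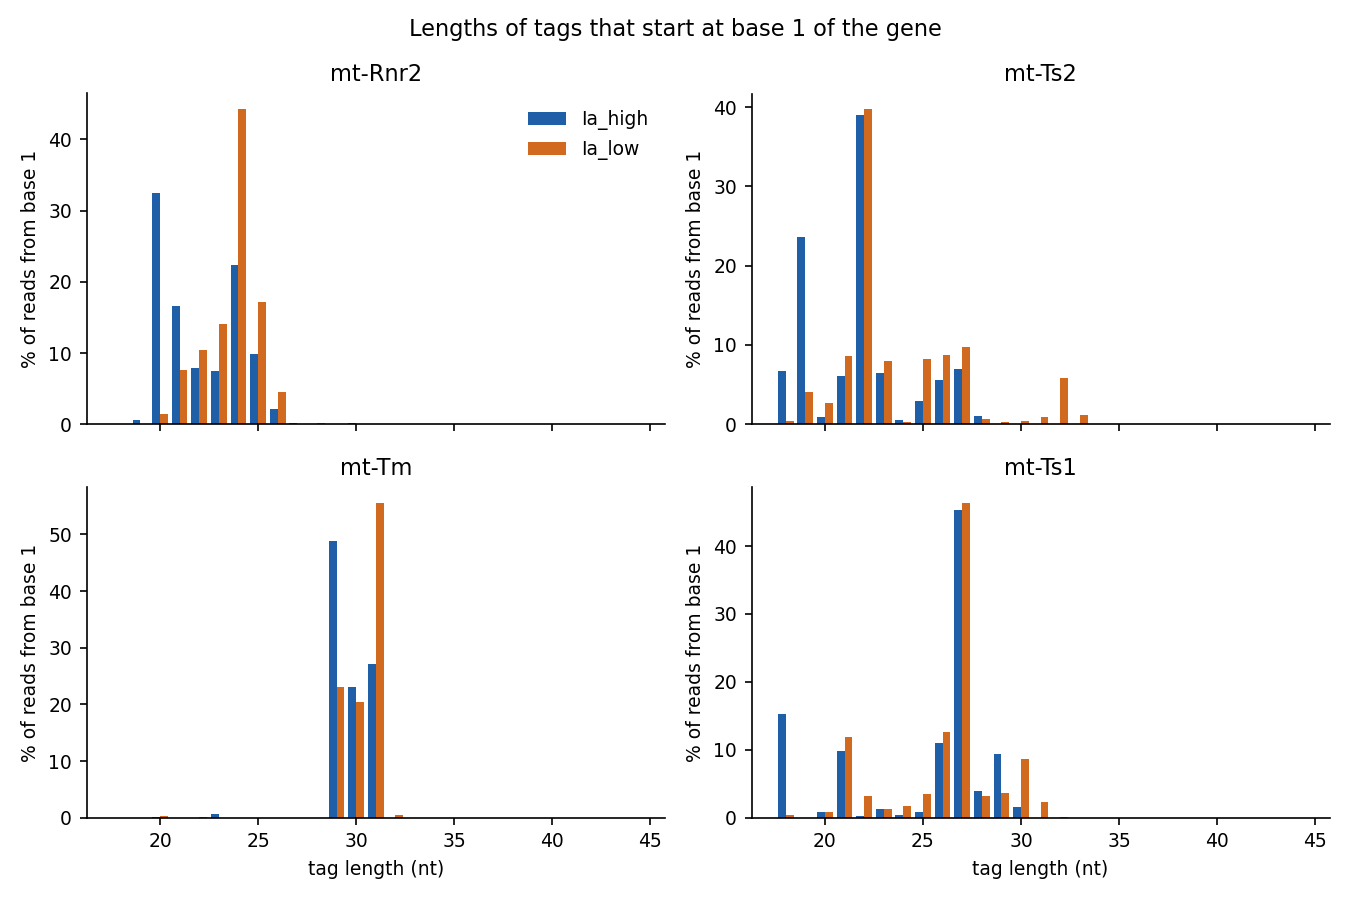
Length (nt) of tags that start at base 1 of mt-Rnr2, mt-Ts2, mt-Tm and mt-Ts1, as a percentage of that gene's base-1 reads, with 1 bar per library. The mt-Rnr2 peak sits at 20 nt in Ia_high and at 24 nt in Ia_low, and mt-Tm moves from 29 nt to 31 nt.

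mt-Rnr1, the 12S rRNA of the small subunit (chrM:70-1024, plus strand), had 1762 and 1175 reads, or 108 and 85.5 RPM, a ratio of 0.795 (widened interval 0.649 to 0.969). The log2 ratio was -0.33 in RPM and 0.54 scaled to miRNA hairpin reads, so its direction turned with the scale. Only 2.72% of its reads in Ia_high and 0.34% in Ia_low began at base 1. The leading start, at base 674, had 177 reads in Ia_high and 26 in Ia_low.

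Transfer RNAs carry amino acids to the ribosome, and their fragments identical to the gene came mainly from the 5' end. Tags starting within 2 nt of the annotated start held 83.4% of tRNA reads in Ia_high (interval 82.8% to 84.0%) and 84.6% in Ia_low (84.2% to 85.0%). The 3' end held 0.89% and 0.34%, and the middle 15.7% and 15.1%. Reads with an added C, CC or CCA (4437 and 9462) are not identical to the gene and are left out of these shares. Without mt-Ts2 and mt-Tm, the 5' share was 41.4% and 46.8%, so the high share rested on these genes. With the added C, CC or CCA counted, the 5' share over all tRNAs was 63.4% in Ia_high and 62.3% in Ia_low.

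mt-Ts2, the serine tRNA for AGY codons, had 8567 and 9381 reads, or 523 and 683 RPM, a ratio of 1.31 (widened interval 1.21 to 1.41). The whole gene is given here with its anticodon in capitals, to show where the tags stop.

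mt-Ts2, chrM:11613-11671, plus strand: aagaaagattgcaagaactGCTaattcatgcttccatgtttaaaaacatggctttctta

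Its 22-nt tag, which ends on the last anticodon base, held 39.0% of base-1 reads in Ia_high and 39.7% in Ia_low. The 19-nt tag, which stops before the anticodon, had 1973 reads in Ia_high against 376 in Ia_low. Among library reads of 19 nt, however, its ratio was 1.11. On that scale the 18-nt tag (562 and 42 reads) had a ratio of 0.222 and the 20-nt tag (72 and 251) 12.3. A 32-nt tag had 3 and 534 reads, a ratio of 15.7 among reads of its length. Both libraries thus shared the leading mt-Ts2 tag, while shorter tags went both ways within their length.

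mt-Tm, the methionine tRNA, which serves both initiation and elongation in mitochondria, had the highest ratio of the measured genes. It had 2039 reads in Ia_high and 9988 in Ia_low, or 124 and 727 RPM, a ratio of 5.84 (widened interval 5.26 to 6.50).

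mt-Tm, chrM:3845-3913, plus strand: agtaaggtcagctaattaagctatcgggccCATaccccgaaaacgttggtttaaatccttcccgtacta

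Of its reads, 86.3% in Ia_high and 97.9% in Ia_low began at base 1, mainly in tags of 29, 30 and 31 nt, and the 31-nt tag ends on the first anticodon base. The 31-nt tag had 477 reads in Ia_high against 5431 in Ia_low. The 30-nt tag had 406 and 1990, and the 29-nt tag 860 and 2257. All 3 were higher in Ia_low, but library reads of 31 nt also went from 0.725% to 4.17% of the total. Among library reads of the same length the ratios were 1.93, 2.62 and 2.36 for 29, 30 and 31 nt. Weighting both libraries to a common length distribution took the log2 ratio of mt-Tm from 2.55 to 1.15, and without base-1 tags it was -0.14.

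Of 5'-end tRNA reads, 77.4% in Ia_high and 75.4% in Ia_low ended inside the anticodon loop, the 7 bases centred on the anticodon. For mt-Tm this was 99.0% and 99.5%, for mt-Ts2 83.7% and 63.9%, and for mt-Tc, the cysteine tRNA, 84.6% and 97.1%. mt-Ts2 gave 7138 of the 9085 reads that ended in a loop in Ia_high and 5909 of 16837 in Ia_low. The mt-Ts2 loop spans bases 18 to 24 and the shortest tag is 18 nt, so no 5'-end tag could stop before it. mt-Ts1, the serine tRNA for UCN codons, was different: 11% and 14.8% ended in the loop, and the rest stopped before it. All 5'-end reads of mt-Tl1, the leucine tRNA for UUR codons, also stopped before the loop. The mt-Tl1 loop starts only at base 34, however, and library reads over 30 nt were 1.63% in Ia_high and 14.3% in Ia_low. Tag length thus limited where these tags could end, and its part in the loop shares was not tested.

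mt-Ts1 had 983 and 1855 reads, a ratio of 2.25 (widened interval 1.86 to 2.72). Its log2 ratio of 1.17 went under 2-fold by distinct tags (0.94), at a common length distribution (0.95) and without base-1 tags (0.95). Its 27-nt tag held 45.3% and 46.4% of base-1 reads, close in both libraries. mt-Tc had 155 and 756 reads, a ratio of 5.82 (3.93 to 8.75), and its 30-nt tag alone had 51 and 609. Without the most abundant tag of each gene the log2 ratio of mt-Tc fell from 2.54 to 0.75.

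mt-Tg and mt-Th were covered mainly from within. mt-Tg, the glycine tRNA, had 490 and 1534 reads, a ratio of 3.73 (2.94 to 4.75). Of these reads, 280 and 769 began inside the anticodon loop or on the first base after it. mt-Th, the histidine tRNA, had 344 and 929 reads, a ratio of 3.22 (2.40 to 4.34), none of them at the 5' end. mt-Tq, the glutamine tRNA, had 157 and 412 reads, a ratio of 3.13 (2.0 to 4.92), and 43.3% of them in Ia_high and 76.9% in Ia_low began at base 1. Without base-1 tags its log2 ratio went from 1.65 to 0.35. By distinct tags the log2 ratio was 0.99 for mt-Tg, 1.01 for mt-Th and 0.12 for mt-Tq.

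mt-Tv, the valine tRNA between the rRNA genes, had 165 and 465 reads identical to the gene, a ratio of 3.36 (2.19 to 5.19). mt-Tl1 had 291 and 233 reads and mt-Ta, the alanine tRNA, 254 and 156, with ratios of 0.955 and 0.733 whose widened intervals included 1. The other 12 tRNAs stayed under the mean of 10 RPM. They ranged from mt-Tk, the lysine tRNA, with 101 and 163 reads, to mt-Td with 8 and 0. mt-Tn, the asparagine tRNA, had 115 and 8 reads, a ratio of 0.083 (widened interval 0.0014 to 0.543).

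Tags with the enzymatically added CCA are not identical to a transcript, so they are not members and were counted apart. Tags that ended in the encoded last base of a tRNA had 53 and 27 reads, while those followed by C, CC or CCA had 4437 and 9462, a ratio of 2.54 in RPM. mt-Tv held most of them, 3923 and 7463 reads. None of the 166 such tags matched an annotated transcript. The leading mt-Tv and mt-Tg tags follow, with the bases that are not in the gene in capitals. They were chosen after the values were seen.

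mt-Tv with CC: tcatgaccaatgaacactctgaCC

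mt-Tv with CCA: catgaccaatgaacactctgaCCA

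mt-Tg with CC: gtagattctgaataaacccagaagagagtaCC

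mt-Tg with CCA: tctgaataaacccagaagagagtaCCA

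For mt-Tv, tags that ended in CC had 2560 and 2866 reads and tags with the complete CCA 1346 and 4578. The complete form was 34.3% of tailed reads in Ia_high (interval 32.8% to 35.8%) and 61.3% in Ia_low (60.2% to 62.4%). Compared at the same start, which leaves 1 base of difference in length, the CCA share was larger in Ia_low at 12 of 13 starts with at least 20 reads in each library. The remaining start had 100% in both. mt-Tg did not show this, with 20.9% of 158 reads and 18.2% of 1106 reads complete, and 4 tRNAs with fewer reads went the other way. These were mt-Te, the glutamate tRNA (89.1% of 64 reads and 53.0% of 149), mt-Tl1 (70.4% of 27 and 22.2% of 108), mt-Ti, the isoleucine tRNA (71.4% of 21 and 48.4% of 159), and mt-Th (100% of 12 and 82.4% of 51). The exact intervals of the libraries overlapped for mt-Ti and mt-Th. mt-Tw, the tryptophan tRNA, went the way of mt-Tv (76.4% of 72 reads and 100% of 54), with intervals that did not overlap. The share was also larger in Ia_low for mt-Tk (48.3% of 87 and 53.4% of 131) and mt-Tp (0% of 23 and 25.6% of 43). It was larger too for mt-Tf, mt-Tt and mt-Ts1, from fewer reads. The intervals overlapped for each of these but mt-Tw. All intervals of the CCA share count each read as 1 observation and were not widened for blocks of reads. Whether they overlap therefore does not settle which tRNAs differed between the libraries. Over all tRNAs, of which mt-Tv gave most reads, the complete share was 36.2% and 55.5%.

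**Figure D4:**
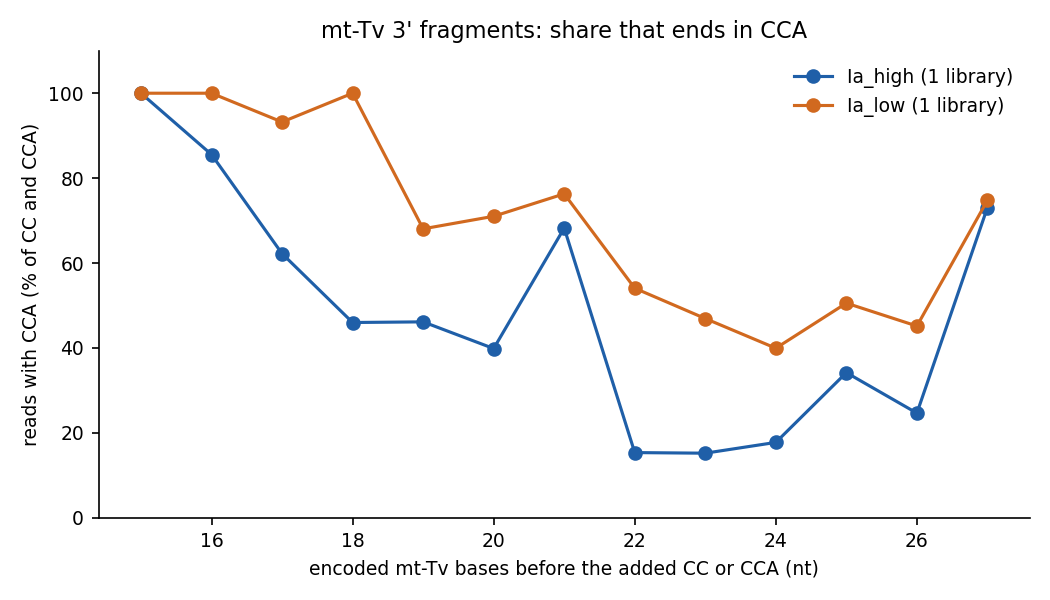
Share of mt-Tv 3' tags that end in CCA, as a percentage of reads with CC or CCA (y axis), against the number of encoded bases before the tail (x axis, nt), with 1 line per library. Ia_low lies above Ia_high at 12 of 13 starts, and both are at 100% at the other.

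The 13 mRNAs encode subunits of respiratory chain complexes I, III and IV and of the ATP synthase, complex V. Their tags were spread along the transcripts: 95.4% of mRNA reads in Ia_high and 93.6% in Ia_low lay in the middle. The top tag held 1.43% and 1.27% of the reads of all 13 mRNAs together. Within single genes the top tag held 2.97% and 3.53% of mt-Co1 reads, 7.06% and 8.38% of mt-Co2 reads and 6.13% and 12.3% of mt-Cytb reads. For mt-Rnr2 it held 29.1% and 38.8%. Some mRNAs with few reads had larger shares, such as mt-Nd2 with 24.2% and 12.7%.

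mt-Co1, the catalytic subunit of complex IV, led with 573 and 566 reads, or 35.0 and 41.2 RPM, a ratio of 1.18 (widened interval 0.862 to 1.60). mt-Co2, its second core subunit, had 170 and 191 reads, a ratio of 1.34 (0.757 to 2.31). mt-Cytb, the cytochrome b of complex III, had 163 and 162 reads, a ratio of 1.19 (0.641 to 2.11). All 3 intervals included 1.

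The remaining 10 mRNAs were under the mean of 10 RPM. For complex IV, mt-Co3 had 140 and 92 reads. For the ATP synthase, mt-Atp6 had 105 and 117 reads and mt-Atp8 had 8 and 14. Complex I subunits followed, mt-Nd2 with 91 and 157 reads, mt-Nd5 with 88 and 81, and mt-Nd4 with 58 and 65. mt-Nd1 had 78 and 36 reads, mt-Nd4l 26 and 71, mt-Nd6 23 and 17, and mt-Nd3 13 and 0. The widened interval excluded 1 for mt-Nd2 (1.04 to 4.01) and mt-Nd4l (1.01 to 11) alone among these 10. Reads at base 1 were 38.5% and 38.2% for mt-Nd2, whose first base follows the last base of mt-Tm, and 69.2% and 49.3% for mt-Nd4l.

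The lengths of all mitochondrial reads moved with those of the libraries. Tags of 18 to 20 nt were 29.1% of mitochondrial reads in Ia_high and 2.83% in Ia_low, and those over 30 nt were 1.28% and 13.6%. In all library reads over 30 nt the shares were 1.63% and 14.3%. Set against library reads of the same length, the mitochondrial ratio was 0.488 at 18 to 20 nt. It was 2.03 at 21 to 23 nt, 1.68 at 24 to 27 nt, 1.85 at 28 to 30 nt and 1.88 above that. Every length class from 21 nt up was therefore higher in Ia_low, and the shortest was lower. The shortest class rested largely on 1 tag, the 20-nt mt-Rnr2 tag. It held 8100 of the 13164 mitochondrial reads of 18 to 20 nt in Ia_high and 358 of 1656 in Ia_low. The ratio of that class without this tag was not computed. The part of read length in the gene ratios was not tested beyond these values.

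**Figure D5:**
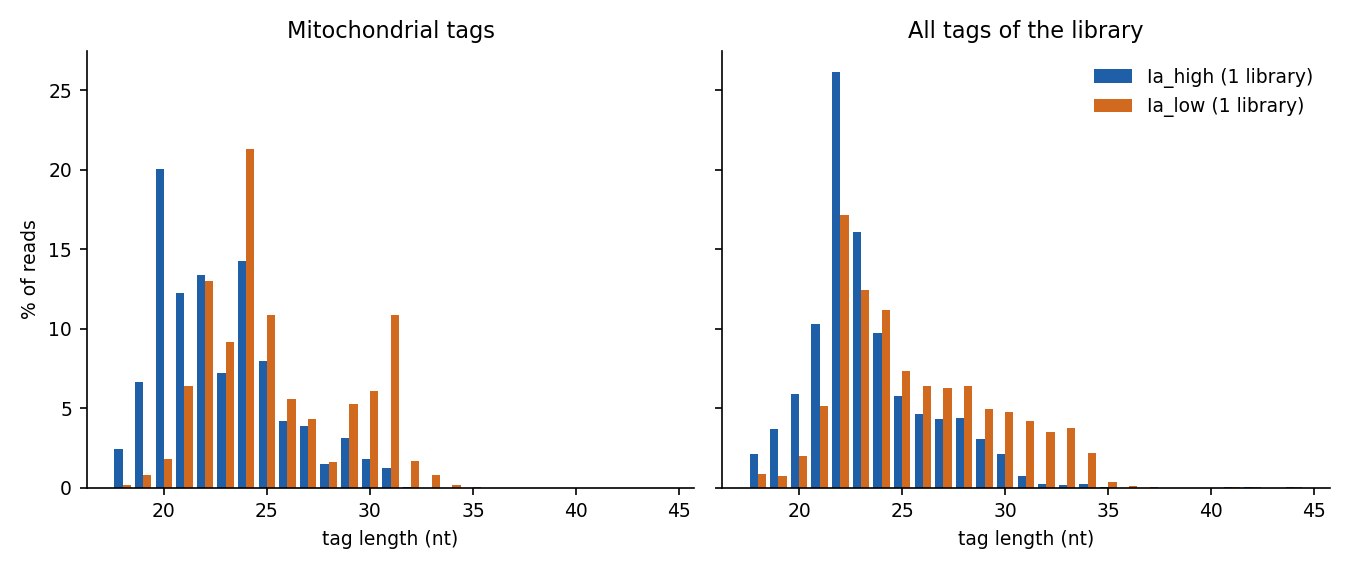
Percentage of reads (y axis) at each tag length (x axis, nt) for mitochondrial tags and for all tags, with 1 bar per library. Mitochondrial reads of 20 nt or less are 29.1% in Ia_high and 2.83% in Ia_low.

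Nuclear genes that serve the same RNAs and complexes were read through mRNA fragments, meaning distinct tags of 20 to 30 nt that match exactly 1 protein-coding gene, with 343784 in Ia_high and 142394 in Ia_low. Of 90 measured genes in 8 lists, 3 were at least 2-fold higher and 18 lower in Ia_low, with a median log2 ratio of -0.12. Over 7123 measured genes outside the mitochondrial genome, 9.53% were higher and 17.7% lower, with a median of -0.14. For nuclear complex I subunits 1 of 29 was higher and 9 were lower, for complex II 0 and 1 of 4, and for complex III 0 and 0 of 8. For complex IV it was 0 and 2 of 10, and for complex V 0 and 3 of 14.

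Sdha, the flavoprotein of complex II, had 73 and 18 fragments, and Cox4i1 of complex IV had 71 and 27. Atp5a1 and Atp5b, the alpha and beta subunits of the ATP synthase, had 118 and 29 and 105 and 33 fragments. Uqcrh of complex III had 57 and 26, and Ndufa13 of complex I had 30 and 12. These ratios lay between 0.593 and 1.10 after scaling to equal totals.

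Of 11 measured genes of mitochondrial RNA processing and decay, 0 were higher and 2 lower. Grsf1, which binds mitochondrial RNA, had 29 and 9 fragments, and Mtpap, the mitochondrial poly(A) polymerase, 17 and 7. Of 2 measured transcription genes, Mterf3 had 13 and 4 and Tfb2m 9 and 6 fragments, and neither passed 2-fold. Of 12 genes of tRNA modification and charging, 2 were higher and 1 lower. One of the 2 was Lars2, the mitochondrial leucyl-tRNA synthetase, with 527 and 504 fragments, a scaled ratio of 2.31. These carried 121015 reads in Ia_high and 67042 in Ia_low, so by reads Lars2 was not higher in Ia_low. Its value is uncertain, because 687 of its 702 distinct fragments lay within 342 bases of a transcript of 3894 bases. Trit1, which modifies tRNAs, had 22 and 0 fragments and was at least 3.04-fold lower, against a floor of 3 fragments in the library.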

How the data were processed

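Small RNA under 30 bases was cut from a gel, joined to a pair of adaptors and amplified for 12 cycles, per the labels' protocols. The authors deposited 1 table of counts per library, with the number of reads of each distinct tag. Neither the labels nor the files name the trimming software or a genome build. Depth was 16388303 reads in Ia_high and 13739811 in Ia_low.

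Tags were matched, with no mismatch, to GENCODE M21 transcripts with Python 3.11.15, numpy 2.4.6, pandas 2.3.3 and scipy 1.17.1. A count of 0 allows 3 reads. The ratio rule was tried on simulated counts of independent reads, a setting that does not cover PCR duplicates. All 37 genes are accounted for; full values are given for the rRNAs, the mRNAs, the 10 most abundant tRNAs and the extreme ratios, and of each nuclear list up to 4 of those with the most fragments. The members and lists were chosen with earlier results of these data known. Fragments were defined by a match to exactly 1 protein-coding gene; a stricter definition, tried after seeing the data because it came nearer to an earlier fragment total, is kept as an alternative only. Alternatives covered scaling, distinct tags, length, other matches, leading tags, floors and end tolerance. No nuclear genome was used here.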

Additional observations from a re-analysis of the deposited data

Results flagged for a closer look

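These signals lie in tags outside the counted members, and there are no control samples, so each was held against the 3 reads that a count of 0 allows. Tags antisense to a mitochondrial gene had 453 reads in Ia_high and 230 in Ia_low, from 90 tags, or 1.0% and 0.39% beside the mitochondrial reads. Tags that ran across a gene end in sense had 89 reads in Ia_high and 169 in Ia_low. Of these, 39 and 93 crossed the end of mt-Co1, into sequence antisense to mt-Ts1. Tags of tRNA 3' ends with added C, CC or CCA had 4437 and 9462 reads.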

How the results depend on the processing

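No paired analysis was possible because each group is 1 library and the labels give no replicate numbers. The log2 ratio of all mitochondrial reads stayed positive in every alternative run: 1.5 scaled to miRNA hairpin reads, 0.25 by distinct tags, 0.28 without the most abundant tag of each gene, 0.71 with added C, CC or CCA, 0.71 at a common length distribution and 0.52 without tags that start at base 1. The count of higher genes, 7, was 23 scaled to miRNA hairpin reads, 2 by distinct tags, 12 at a floor of 1 RPM, 3 at a floor of 50 and 3 without base-1 tags. It was 7 when the widened interval also had to exclude 1. The count of lower genes, 0, was 1 scaled to miRNA hairpin reads and 3 at a floor of 1.

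The 5' end share of tRNA reads in Ia_high, then Ia_low, was 19.0% and 21.5% by distinct tags, 77.4% and 75.0% without the most abundant tags, 93.7% and 93.4% for tags in both libraries, 63.4% and 62.3% with added C, CC or CCA, 84.5% and 82.3% at a common length distribution and 8.02% and 2.19% without base-1 tags. It was 81.9% in Ia_high with a tolerance of 0 nt. In Ia_low it was 85.2% with 5 nt and 81.4% for 18 to 30 nt. The tRNA share was 30.2% and 38.3% by distinct tags, 30.4% and 38.5% for 18 to 30 nt, 31.7% and 45.8% without other matches, 27.6% and 42.6% without the most abundant tags, 31.8% and 45.7% for tags in both libraries, 37.3% and 52.8% with added bases, 33.8% and 43.1% at a common length distribution and 29.4% and 39.9% without base-1 tags. It was larger in Ia_low in each of these.

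mt-Tm reversed without base-1 tags, to -0.14. The 7 higher genes had 77 alternatives, of which 76 were positive and 66 at least 2-fold. The cause of these moves was not tested. The common length distribution, the removal of base-1 tags and the stricter fragments were chosen after seeing the data. With fragments that match no other gene of any type, 320140 and 132375 remained, and 3 of 81 nuclear list genes were higher and 16 lower, against 3 and 18 of 90, with a median log2 ratio of -0.31 against -0.12. By that definition 683 of 6928 nuclear genes were higher and 1216 lower, with a median of -0.14. Matching to the nuclear genome was not run. No tag matched more than 1 mitochondrial gene, so counting such tags in each gene changed no value. Genes under 10 RPM rest on few tags, and depth limits them.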

Other observations

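Base-1 tags of mt-Rnr2 were also found with 1 to 3 bases that the gene does not encode at their 3' end. All such additions made up 5.15% of these reads in Ia_high and 8.91% in Ia_low. Added A had 393 and 599 reads, AA 306 and 653, and AAA 142 and 270, while added T had 12 and 18. Additions not made of A or T alone had 497 and 976 reads, more than any of these classes. For mt-Ts2 the share of reads with added bases was 9.38% and 1.68%, for mt-Tm 2.11% and 0.45%, and for mt-Ts1 10.8% and 7.76%. A sequencing error in the last bases would be counted here too, and its part was not tested.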
